A study of Mus musculus with 288 samples.

Results

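The genes described here are Apoa1, Apoa4, Apob, Mttp, Fabp1, Fabp2, Rbp2, Alpi and Sis, 9 genes of fat absorption and of the brush border that are best known from enterocytes. They were picked by name from the 46078 mouse genes of a count table of single cells, and their levels were read in endocrine cells sorted from the upper small intestine. The cells came from GLU-Venus mice, in which the proglucagon promoter drives Venus, a fluorescent protein, on a C57BL6 background. The mice were untreated males aged 20 to 21 weeks, and tissue was taken from the first 10 cm of the small intestine. In these mice Venus marks cells that use, or have used, the proglucagon promoter, and these cells are a mixed population and not a single cell type. Single cells were sorted by fluorescence and sequenced by Smart-seq2, a full-length cDNA protocol without strand information or molecular identifiers.

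The table holds 288 cells in 3 pools of 96 (SLX-11175, SLX-11179 and SLX-9703), and each pool is taken as 1 mouse. By the study's methods non-fluorescent control cells were sorted beside fluorescent ones, and the deeply sequenced mouse gave fluorescent cells, but the labels give neither the mouse nor the fluorescence of a cell. The classes used here were set by genes and do not stand for the sorted fractions. Cells with at least 20000 reads on mouse genes, of which at most 20% were mitochondrial, were kept, which left 75, 87 and 88 cells of the pools, 250 in all. Reads on genes ran from 20121 to 4368674 per kept cell, with a median of 52571 in SLX-11175, 70726 for SLX-11179 and 1975706 for SLX-9703, the deeply sequenced pool. Endocrine cells were those with at least 10000 counts per 1000000 reads on genes (CPM) of Cck, the cholecystokinin gene (41, 53 and 62 cells, 156 in all). Cck-low cells had less than 1000 CPM (30, 26 and 8 cells, 64 in all), and the other 30 cells lay between these limits. Cck set these classes and is not itself a result. As a check of the class, the summed level of 10 endocrine genes (Chga, Chgb, Scg2, Scg3, Scg5, Pcsk1, Pcsk1n, Neurod1, Isl1 and Cpe) had a median of 11845, 14393 and 27447 CPM in the endocrine cells of the 3 pools and was never below 2178 CPM. In the Cck-low cells the medians were 153, 131 and 176 CPM.

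Enterocytes are the absorptive cells of the villus. They take up fatty acids and retinol, bind them to small cytosolic carriers, rebuild triglyceride and export it on chylomicrons, which are lipid particles around a large apolipoprotein. Their apical membrane forms the brush border, on which anchored enzymes split sugars, peptides and phosphate esters. Endocrine cells arise from the same stem cells and sit scattered among enterocytes, where they release hormones in response to nutrients. In the list studied here, Apob is the structural protein of the chylomicron, Mttp loads it with lipid, and Apoa1 and Apoa4 are exchangeable apolipoproteins. Fabp1 and Fabp2 are the liver-type and intestinal fatty acid binding proteins, and Rbp2 is the cellular retinol binding protein of the intestine. Alpi is intestinal alkaline phosphatase and Sis is sucrase-isomaltase, a disaccharidase.

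In the annotation used (GENCODE M21, genome build GRCm38), the apolipoprotein genes Apoa1 (chr9:46228580-46230466, plus strand) and Apoa4 (chr9:46240696-46243459, plus strand) are neighbours, and Apob lies at chr12:7977648-8016835 on the plus strand. Mttp lies at chr3:138089854-138144968 (minus strand), Fabp1 at chr6:71199827-71205023 (plus), Fabp2 at chr3:122895072-122899506 (plus), Rbp2 at chr9:98486115-98509781 (plus), Alpi at chr1:87098002-87101606 (minus) and Sis at chr3:72888557-72967863 (minus). Reads were counted over the exons of these genes without strand. Where annotated genes overlap, their reads cannot be told apart, which touches Apoa4 (Gm47528 and Gm10680), Mttp (Gm43691 and Trmt10a), Fabp2 (4933405D12Rik) and Rbp2 (Gm37113).

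The proximal promoters of 4 members are shown, and those of the other members, Alpi and Apoa1 among them, were read but are not printed. Each is the 250 bases before the transcription start in RefSeq (GRCm38.p6, the mm10 build), read 5′ to 3′ along the strand of the gene. Capitals mark matches, on either strand, to the letters of 4 motifs of intestinal transcription factors: an HNF1 half-site (GTTAAT), an HNF4 type (CAAAGNNCA), a CDX type (TTTATNG) and a GATA type (AGATAA). The Rbp2 window and the end of the Fabp1 window lie inside the longer GENCODE models of these genes.
Sis promoter, chr3:72967864-72968113, minus strand: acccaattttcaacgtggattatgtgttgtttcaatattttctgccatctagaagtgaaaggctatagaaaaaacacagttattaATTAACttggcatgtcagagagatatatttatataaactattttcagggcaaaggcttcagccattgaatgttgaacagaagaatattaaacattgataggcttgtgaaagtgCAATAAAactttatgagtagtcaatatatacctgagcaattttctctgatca
Fabp2 promoter, chr3:122894822-122895071, plus strand: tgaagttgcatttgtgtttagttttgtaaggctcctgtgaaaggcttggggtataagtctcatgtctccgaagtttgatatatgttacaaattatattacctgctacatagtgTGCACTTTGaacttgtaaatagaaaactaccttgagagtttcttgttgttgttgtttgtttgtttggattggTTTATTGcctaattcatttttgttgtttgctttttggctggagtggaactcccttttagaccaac
Rbp2 promoter, chr9:98490287-98490536, plus strand: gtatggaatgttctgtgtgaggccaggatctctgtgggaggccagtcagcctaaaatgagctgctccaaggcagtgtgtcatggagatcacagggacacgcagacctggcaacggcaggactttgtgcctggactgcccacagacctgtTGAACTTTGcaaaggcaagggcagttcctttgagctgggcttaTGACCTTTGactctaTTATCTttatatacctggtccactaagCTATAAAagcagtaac
Fabp1 promoter, chr6:71199629-71199878, plus strand: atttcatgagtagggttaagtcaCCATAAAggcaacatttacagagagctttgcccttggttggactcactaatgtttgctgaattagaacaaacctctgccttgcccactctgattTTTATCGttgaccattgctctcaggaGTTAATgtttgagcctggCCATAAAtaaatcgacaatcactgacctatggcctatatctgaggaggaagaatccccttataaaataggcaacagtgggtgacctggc
The Sis window held an HNF1 half-site from 165 to 160 bases before the start and a CDX-type match from 52 to 46 bases before it. The Fabp2 window held an HNF4-type match (137 to 129) and a CDX-type match (65 to 59). The Rbp2 window held HNF4-type matches at 101 to 93 and at 58 to 50, a GATA-type match (43 to 38) and a CDX-type match (16 to 10). The last of these reads CTATAAA along the gene and therefore contains the letters of a TATA box. The Fabp1 window held an HNF1 half-site (107 to 102) and 3 CDX-type matches.

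Over the windows of all 9 members, the HNF4-type letters occurred in 5 (Alpi, Fabp2, Apoa4, Rbp2 and Apob), the CDX-type letters in 6 (Alpi, Sis, Fabp2, Fabp1, Rbp2 and Apob), the HNF1 half-site in 2 (Sis and Fabp1) and the GATA-type letters in 1 (Rbp2). The windows of Apoa1 and Mttp, which are not printed, held none of these motifs. Among 32851 RefSeq windows of the same length, 5.5% held the HNF4-type letters, 9.8% the CDX-type letters, 6.4% the HNF1 half-site and 10% the GATA-type letters. These are matches of letters and not sites of binding, and a window without a match says nothing of the factor.

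Endocrine cells carried 2 of the 9 genes in nearly every cell, 3 in 32.1 to 35.9% of cells and the other 4 in at most 16%. A cell is called carrying here when a gene has at least 2 reads after its reads were thinned at random to 20000, so that pools of unequal depth can be compared. Sis was carried by 154 of the 156 endocrine cells (98.7%, exact Clopper-Pearson 95% confidence interval 95.5 to 99.8%) and Fabp2 by 143 (91.7%, 86.2 to 95.5%). Mttp was carried by 56 cells (35.9%), Rbp2 by 53 (34%) and Apob by 50 (32.1%). Fabp1 followed with 25 cells (16%), Apoa1 with 22 (14.1%), Apoa4 with 13 (8.33%) and Alpi with 1 (0.64%). Without thinning, a read was found in 100% of endocrine cells for Sis, 99.4% for Fabp2, 78.2% for Apob, 73.1% for Mttp, 69.9% for Rbp2, 51.3% for Apoa1, 48.1% for Fabp1, 34% for Apoa4 and 14.1% for Alpi. The intervals cover counting error only, and reads from 1 molecule amplified by PCR are not independent.

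Sis, the brush border disaccharidase, was the most abundant member by CPM. Its level in the summed reads of the endocrine cells was 1134, 1297 and 1774 CPM in SLX-11175, SLX-11179 and SLX-9703. In single endocrine cells it ran from 73.4 to 2859 CPM with a median of 1063 CPM in SLX-11175, from 56.6 to 3465 CPM with a median of 1247 CPM in SLX-11179, and from 148 to 5657 CPM with a median of 1639.5 CPM in SLX-9703. Thus no endocrine cell lacked Sis reads in any pool, and the pools overlapped over most of their range.

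Fabp2, the intestinal fatty acid carrier, stood at 914, 1243 and 879.7 CPM in the endocrine sums of SLX-11175, SLX-11179 and SLX-9703. Its medians per cell were alike, at 717, 698 and 733 CPM, with lowest cells at 0, 45.1 and 4.46 CPM and highest cells at 2559.67, 4420.35 and 3038 CPM. The other fatty acid carrier, Fabp1, was far lower, at 27.4, 34.8 and 56.1 CPM in the sums and at 0, 0 and 12.1 CPM in the median cell. Its highest endocrine cells held 393, 272 and 593 CPM.

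Rbp2, the retinol carrier, was at 119.5, 151 and 82.9 CPM in the endocrine sums. Its median cell had 19.9, 13.4 and 43.6 CPM and its highest cell 604, 1416 and 1018 CPM, so that a minority of cells held most of its reads. That minority was of like size in the pools (13 of 41, 18 of 53 and 22 of 62 cells carrying it).

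Of the genes of chylomicron assembly, Mttp was at 48.2, 84.6 and 128 CPM in the endocrine sums and Apob at 69, 66.8 and 60.3 CPM. Relative to its mean, Apob differed least between pools of all 9 members. Apoa1 was at 13.5, 27.2 and 90.9 CPM and Apoa4 at 4.63, 8.98 and 26.25 CPM, both highest in the deep pool. The share of endocrine cells carrying Apoa1 was 7.32% and 5.66% in the shallow pools and 25.8% in the deep pool, at the same thinned depth. For Apoa4 these shares were 4.88%, 3.77% and 14.5%. Pool, mouse and sequencing depth cannot be told apart here.

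Alpi, the phosphatase that marks mature enterocytes, was at 0, 1.1 and 5.32 CPM in the endocrine sums. It was carried by 0 of 41 cells in SLX-11175 (exact Clopper-Pearson upper limit 8.6%; 3 cells of 41 would be 7.32%), 1 of 53 in SLX-11179 and 0 of 62 in SLX-9703 (upper limit 5.78%; 3 cells of 62 would be 4.84%). Both brush border enzymes of the list thus stood at opposite ends of it.

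Per length of the merged exons, the order of the members changed, because Sis and Apob have long transcripts. On the scale of reads per kilobase of exon and 1000000 reads on genes (RPKM, mean ± SD over n = 3 pools), Fabp2 was at 1049 ± 208, Sis at 188 ± 44.6, Rbp2 at 122 ± 35.5 and Fabp1 at 71.3 ± 27 in endocrine cells. Apoa1 was at 35.5 ± 33.4, Mttp at 14 ± 6.46, Apoa4 at 7.32 ± 6.30, Apob at 4.69 ± 0.323 and Alpi at 0.915 ± 1.20. In this order, Fabp2 lay above Sis by more than the spread between pools, and so did Apob above Alpi. For the other neighbours the ranges of mean ± SD overlapped.

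**Figure D1:**
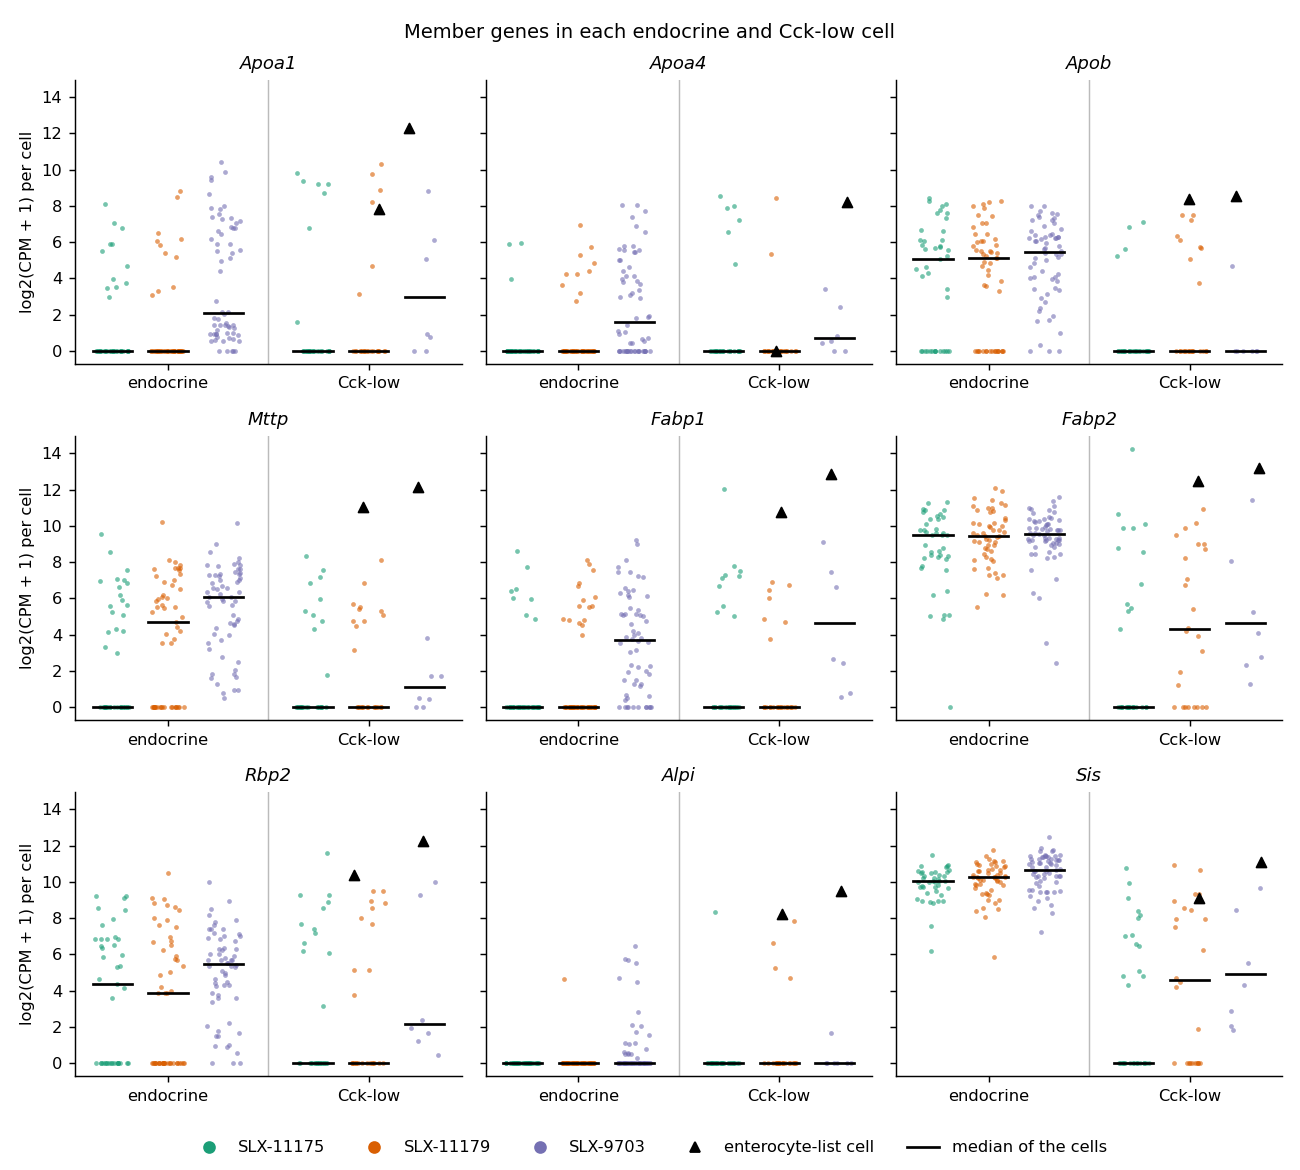
Level of each member gene, as log2(CPM + 1), in each of the 156 endocrine and 64 Cck-low cells, coloured by pool, with the median of the cells as a black line. Sis and Fabp2 lie high in nearly all endocrine cells, while black triangles, the enterocyte-list cells (2 Cck-low cells, 1 each in SLX-11179 and SLX-9703), hold the highest Fabp1, Fabp2 and Rbp2 levels of the Cck-low cells of their pools.

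The first comparison asked whether the members are higher or lower in endocrine than in Cck-low cells. In the data, 3 members were lower in endocrine cells, none was higher, and Sis and Fabp2 were carried by a larger share of the endocrine cells, a difference in shares that was not tested. Reads were summed per pool and class and tested with edgeR (quasi-likelihood, pool as a block, Benjamini-Hochberg adjustment) over 12400 genes. Of these genes 1.48% passed an adjusted p of 0.05 (0.323% higher and 1.15% lower in endocrine cells), against 3 of the 9 members, all lower. Among these 3, Alpi entered the test through its Cck-low reads. Log2 fold changes are given with an approximate standard error (SE), the fold change over the square root of the F statistic. They include composition factors of the sums between 0.419 and 1.61 and therefore differ from ratios of the CPM.

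Alpi was lower in endocrine cells in each pool, at 0 against 8.23 CPM in SLX-11175, 1.1 against 22 CPM in SLX-11179 and 5.32 against 186 CPM in SLX-9703. Its log2 fold change was -5.55 (SE 0.73, adjusted p = 0.0149). Alpi had 0, 5 and 726 reads in the endocrine sums and entered the test through its Cck-low reads, so no conclusion is drawn from its call. Fabp1 was at 27.4 against 126 CPM, 34.8 against 102 CPM and 56.1 against 1964 CPM, a log2 fold change of -3.77 (SE 0.61, adjusted p = 0.0378). Apoa1 was at 13.5 against 69.5 CPM, 27.2 against 54.8 CPM and 90.9 against 1349 CPM, a log2 fold change of -3.24 (SE 0.55, adjusted p = 0.041). The 3 genes were lower in endocrine cells in 3 of 3 pools. Without pool SLX-11175 no gene passed the test, with an adjusted p of 0.078 for Alpi, 0.323 for Fabp1 and 0.346 for Apoa1, although 1335 genes had an unadjusted p under 0.05. With Cck limits of 5000 and 500 CPM, Alpi missed the threshold (-5.05, adjusted p = 0.0593). With a mitochondrial limit of 10%, which removes both Cck-low cells of the enterocyte list described below, no member passed either.

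Sis was higher in endocrine cells in 3 of 3 pools, at 1134 against 123 CPM, 1297 against 257 CPM and 1774 against 699 CPM, without passing the test (log2 fold change 1.49, SE 0.35, adjusted p = 0.119). Without the deep pool it passed (log2 fold change 1.54, adjusted p = 0.0398). Fabp2 was higher in the sums of SLX-11175 (914 against 622 CPM) and SLX-11179 (1243 against 452 CPM) and lower in SLX-9703 (879.7 against 2717 CPM), with a log2 fold change of -0.68 (SE 0.51, adjusted p = 0.624). Rbp2 (-2.17, adjusted p = 0.228), Apoa4 (-1.86, adjusted p = 0.293), Mttp (-1.70, adjusted p = 0.255) and Apob (0.24, adjusted p = 0.909) did not pass either. By cells in place of reads, 27 of the 64 Cck-low cells carried Sis (42.2%) and 21 carried Fabp2 (32.8%), fewer than the shares of endocrine cells above. Alpi was carried by 5 Cck-low cells (7.81%), Fabp1 by 15 (23.4%), Apoa1 by 14 (21.9%) and Rbp2 by 22 (34.4%).

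The Cck-low sums were a mixture, and 1 cell of each pool held most of the Fabp1, Fabp2 and Alpi reads in them. Enterocyte-list cells are here the cells with at least 5000 CPM over 13 enterocyte marker genes (Vil1, Lct, Anpep, Dpp4, Mep1a, Mep1b, Slc5a1, Slc2a5, Slc15a1, Krt20, Cyp3a11, Reg3g and Ces2e, none of them a member) and less than 5000 CPM over the endocrine genes, limits set after the data had been seen. There were 4 such cells, of which 2 were Cck-low (cell 83 of SLX-11179 and cell 63 of SLX-9703, at 7867 and 12613 CPM of the markers). They had reads of 9 and 12 of the 13 markers and carried 8 and 9 of the 9 members. Cell 85 of SLX-11175 was the next highest Cck-low cell but well below the limit, with 3062 CPM of the markers and 8 members carried. Fabp2 reached 19404 CPM in cell 85, 5717 CPM in cell 83 and 9487 CPM in cell 63. Fabp1 reached 4223, 1721 and 7276 CPM, Rbp2 3087, 1315 and 4980.16 CPM, and Alpi 319, 303 and 718 CPM in the same cells. Sis was at 293, 549 and 2179 CPM, so that in cells 85 and 83 it lay below the median of the endocrine cells of the same pool.

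Cells 85, 83 and 63 held 100%, 71.6% and 100% of the Alpi reads of the Cck-low sums of SLX-11175, SLX-11179 and SLX-9703. They held 86.2%, 87.5% and 95.9% of the Fabp1 reads, 80.6%, 65.9% and 90.4% of the Fabp2 reads. Of the Apoa1 reads, cells 83 and 63 held 21.2% and 96.2%, and of the Sis reads 11.1% and 80.8%. In the Cck-low cells of SLX-11179 and SLX-9703 without these 2 cells, Fabp2 was at 162 and 351 CPM and Sis at 241 and 181 CPM, both under the endocrine level of the pool. When the comparison was repeated without the 2 enterocyte-list cells, an alternative chosen after the data had been seen, no member passed the test (87 genes did). The log2 fold changes were then -2.98 for Alpi (adjusted p = 0.789), -1.47 for Fabp1 (0.59), -1.81 for Apoa1 (0.517), 0.72 for Fabp2 (0.728) and 2.04 for Sis (0.227). Mttp turned from -1.70 to 1.85 (0.681) and Apob went from 0.24 to 1.86 (0.431). The calls of Alpi, Fabp1 and Apoa1 were thus lost without 2 of the 64 Cck-low cells.

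**Figure D2:**
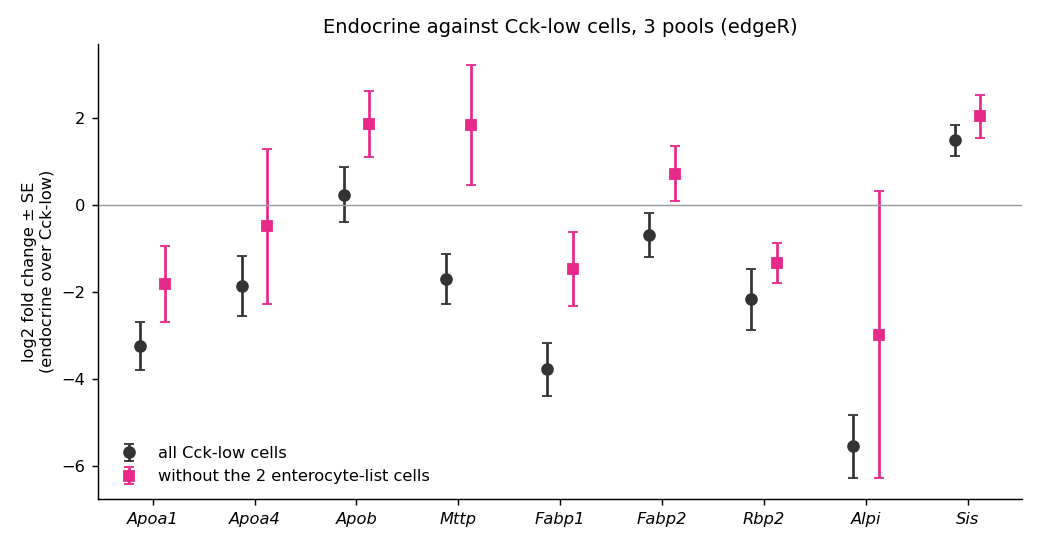
Log2 fold change of each member in endocrine over Cck-low cells (edgeR, sums of 3 pools), with bars of ± 1 approximate SE, for all Cck-low cells (black circles) and without the 2 enterocyte-list cells (pink squares). Without these cells Alpi goes from -5.55 to -2.98 and Fabp1 from -3.77 to -1.47, while Sis stays above 0.

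The remaining Cck-low cells differed in their members by kind. Of the 64 cells, 14 had at least 10000 CPM over 4 plasma cell genes (Jchain, Igha, Igkc and Mzb1) or at least 200 CPM over 10 leukocyte genes, and these held 48.3% of the reads of the Cck-low sums. In 13 of them no member was carried, at a median depth of 445767 reads on genes. Their Sis level was 0.53, 0.65 and 4.96 CPM in the sums of the 3 pools and their Fabp2 level 1.06, 3.23 and 4.81 CPM, and Alpi and Apob had no read in them. The endocrine sums of Sis and Fabp2 held at least 879.7 CPM in every pool. The part of reads from other cells in these levels was not tested. Without these 14 cells, again an alternative chosen later, Alpi passed the test (log2 fold change -6.35, adjusted p = 0.032) and Fabp1 (-4.39, adjusted p = 0.157) and Apoa1 (-3.91, adjusted p = 0.147) did not, while 25 genes did. The limit given above for the call of Alpi holds here too.

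A further 15 Cck-low cells held 10000 CPM of Gip or more and 10 had at least 1000 CPM over the endocrine genes with less Gip. In these 10 cells Fabp2 was at 1045, 483 and 2741 CPM and Sis at 1219.95, 1016 and 826 CPM in the sums of the 3 pools, which held 2, 7 and 1 of the cells, so that the last value is that of a single cell. They carried a median of 3 members, as the endocrine cells did. The median number of members carried was 3 in endocrine cells with Gip under 10000 CPM (150 cells), 3 in Gip-high cells (29), 1 in the other Cck-low cells with little of the endocrine genes (23), 0 in cells of the plasma and leukocyte lists (14) and 9 in the enterocyte-list cells (4). Of these last cells, cells 8 and 96 of SLX-9703 held 8624 and 9565 CPM of Cck, and cell 96 held 66014 CPM of Gcg, the proglucagon gene. The study proposes that a few fluorescent cells in its clusters of non-fluorescent cells were likely clumps of enterocytes with a proglucagon-expressing cell. Whether cells 8 and 96 were such clumps was not tested. Median depths of these kinds ran from 44004 to 1673864 reads, before thinning.

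**Figure D3:**
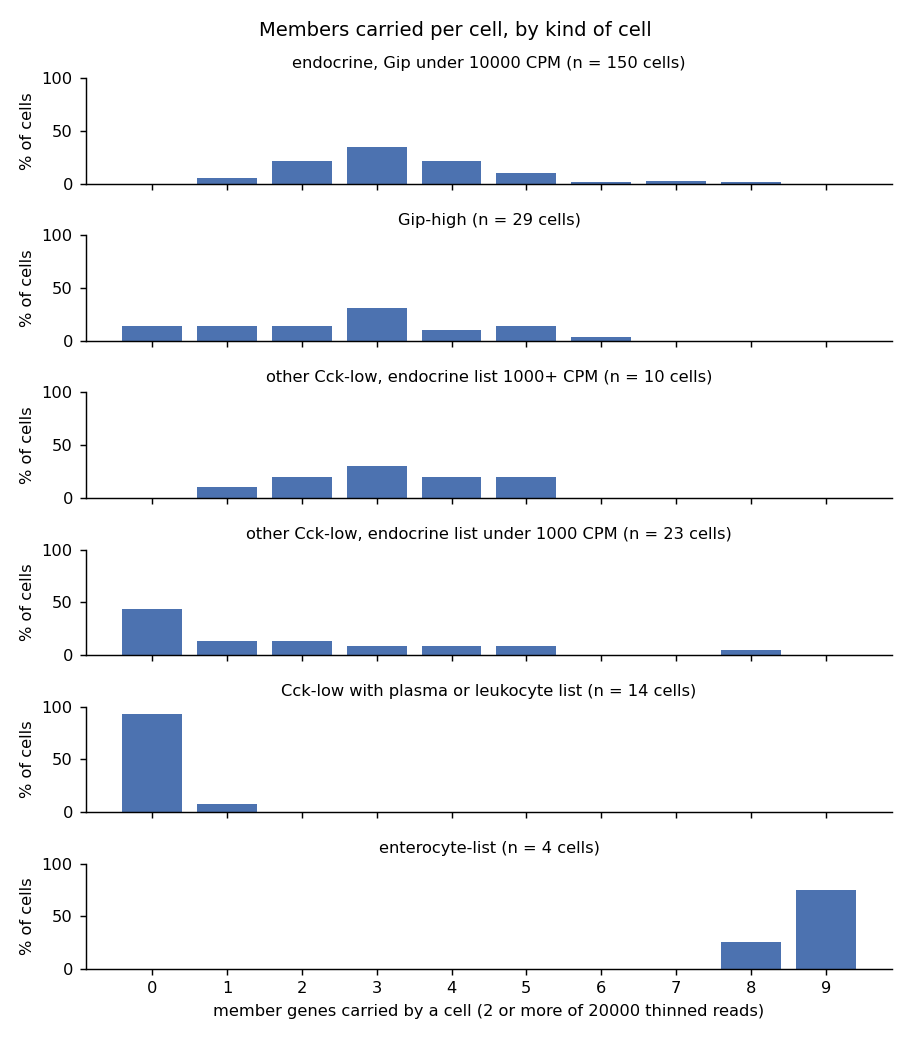
Share of cells (%) by the number of member genes a cell carried, with at least 2 of 20000 thinned reads, in 6 kinds of cell. Endocrine cells peak at 3 members, the enterocyte-list cells carry 8 or 9, and 13 of 14 cells of the plasma and leukocyte lists carry 0. The enterocyte-list cells include cells 8 and 96 of SLX-9703, which also held 8624 and 9565 CPM of Cck.

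Among endocrine cells, which ones carried the rarer members was asked next, within each pool. The median endocrine cell carried 3 members in SLX-11175 and SLX-11179 and 4 in SLX-9703 (means 2.88, 3.21 and 3.69). Only 10 of the 156 carried 6 or more (1, 3 and 6 in the pools), and none carried all 9. Of these 10 cells, 2 carried 8 members: cell 66 of SLX-11179 and cell 11 of SLX-9703. Cell 66 held 4420.35 CPM of Fabp2, 359 CPM of Apoa1, 272 CPM of Fabp1, 24.3 CPM of Alpi and 30019.53 CPM of the endocrine genes. Cell 11 held 1366 CPM of Apoa1, 264 CPM of Apoa4, 1557 CPM of Sis and no Alpi read. The enterocyte marker level of the 10 cells ran from 1144 to 5074 CPM. Its median over endocrine cells was 1445, 1746 and 2394 CPM in the pools, and the 10 cells lay on both sides of it. Of the Pzp-positive endocrine cells (at least 200 CPM of Pzp, the pregnancy zone protein gene) 1 of 58 carried 6 or more members, and of the cells under 50 CPM 8 of 93 did.

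Endocrine cells with and without Rbp2 differed in the summed level of 7 goblet cell genes (Muc2, Tff3, Fcgbp, Clca1, Agr2, Zg16 and Spink4). Its median was 685 CPM in cells carrying Rbp2 against 2750.4 CPM in the others in SLX-11175, 1526 against 5004 CPM in SLX-11179 and 4979.8 against 6659.9 CPM in SLX-9703, lower in cells with Rbp2 in each pool. The goblet genes were lower in cells carrying Mttp too (1187 against 1899 CPM, 1531 against 5179 CPM and 5188 against 6789 CPM). Cells carrying Mttp also had a higher median of Gcg, the proglucagon gene, at 22468 against 3592 CPM, 30845 against 510.2 CPM, and 6424 against 762 CPM. Their endocrine genes were higher in each pool as well (25390 against 10835 CPM, 17795 against 13550 CPM and 32245 against 23498 CPM). So was Cck, which set the class and is not itself a result. These are descriptions of cells and were not tested.

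The Gip-high cells, with at least 10000 CPM of Gip (the gene of glucose-dependent insulinotropic peptide), were compared with the endocrine cells under 1000 CPM of Gip. Rbp2 rose and Fabp2 fell in Gip-high cells, so that these 2 small carriers, of retinol and of fatty acids, went in opposite directions. The other fatty acid carrier, Fabp1, went in the direction of Rbp2 without passing the test (log2 fold change 1.34, adjusted p = 0.245 by edgeR). There were 12, 6 and 11 Gip-high cells in the pools and 39, 50 and 58 others. Over 11695 genes, 1.04% passed the test (0.513% higher and 0.53% lower in Gip-high cells), against 2 of the 8 members tested, 1 in each direction. Alpi was too low to be tested. Gip alone reached 610612 CPM in cell 76 of SLX-11179, which lowers the CPM of the other genes of that cell. The log2 fold changes include composition factors of the sums between 0.756 and 1.425 and therefore differ from ratios of the CPM.

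Rbp2 was at 287, 701 and 473 CPM in the Gip-high sums of SLX-11175, SLX-11179 and SLX-9703, against 92.2, 94.7 and 82.4 CPM in the other endocrine sums. Rbp2 was thus higher in Gip-high cells in 3 of 3 pools, and the log2 fold change was 2.77 (SE 0.40, adjusted p = 0.00156). Of the 29 Gip-high cells 19 carried Rbp2 (65.5%), against 47 of the other 147 (32%). In single Gip-high cells Rbp2 ran from 0 to 629 CPM with a median of 69.9 CPM in SLX-11175, from 0 to 1416 CPM with a median of 473 CPM in SLX-11179 and from 4.28 to 1033 CPM with a median of 106 CPM in SLX-9703. The highest of these cells, cell 75 of SLX-11179, also held 132186 CPM of Cck and 28681 CPM of Gcg. Without it, an alternative chosen later, the Gip-high sum of its pool stood at 485 CPM of Rbp2, and both calls were kept (Rbp2 2.65, adjusted p = 0.00429, and Fabp2 -2.43, adjusted p = 0.0253).

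Fabp2 was at 59.95, 214 and 238 CPM in the Gip-high sums against 975, 1324 and 898 CPM in the others, lower in 3 of 3 pools. Its log2 fold change was -2.41 (SE 0.47, adjusted p = 0.0149). It was carried by 13 of 29 Gip-high cells (44.8%) and 135 of the 147 others (91.8%). Sis was at 376, 407 and 369.7 CPM against 1173, 1364 and 1810.21 CPM, lower in 3 of 3 pools, with a log2 fold change of -1.48 (SE 0.37, adjusted p = 0.0783) that missed the threshold and passed without SLX-11175 (-1.76, adjusted p = 0.0133). Sis was carried by 20 Gip-high cells (69%) and by all 147 others. Fabp1 was higher in 3 of 3 pools without passing the test (66.4, 53.6 and 109 CPM against 27.95, 34.6 and 58.5 CPM, log2 fold change 1.34, SE 0.46, adjusted p = 0.245). Apob (-1.26, adjusted p = 0.537), Apoa4 (-1.05, adjusted p = 0.92), Mttp (-0.27, adjusted p = 0.939) and Apoa1 (0.26, adjusted p = 0.97) did not pass.

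Rbp2 and Fabp2 kept their direction in each of 13 alternatives, Rbp2 with a log2 fold change from 1.98 to 3.04 and an adjusted p from 2.13e-09 to 0.19, and Fabp2 from -3.90 to -2.0 and an adjusted p from 3.28e-10 to 0.0804. Neither passed without the deep pool SLX-9703 (adjusted p = 0.0826 for Rbp2 and 0.0641 for Fabp2) or with limma (0.14 and 0.0747). Rbp2 did not pass for Gip-high cells under 1000 CPM of Cck (0.19), and Fabp2 did not without the pool as a block (0.0804) or with at least 750000 reads in the deep pool (0.0515). The endocrine genes moved with this contrast, at a median of 1926, 6585 and 7477 CPM in the Gip-high cells against 11845, 14854 and 27447 CPM in the others, and the goblet genes at 9.5, 197 and 148 CPM against 1857, 3853 and 6537 CPM. The 13 enterocyte markers had medians of 391, 420.3 and 299.8 CPM against 1468, 1784 and 2471 CPM, and 6 general epithelial genes (Epcam, Krt8, Krt18, Krt19, Cdh1 and Cldn7) had 390.5, 820.3 and 1072 CPM against 1712, 1528 and 2676 CPM. Of the 29 Gip-high cells, 6 had at least 10000 CPM of Cck. The part of these levels in the member differences was not tested.

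**Figure D4:**
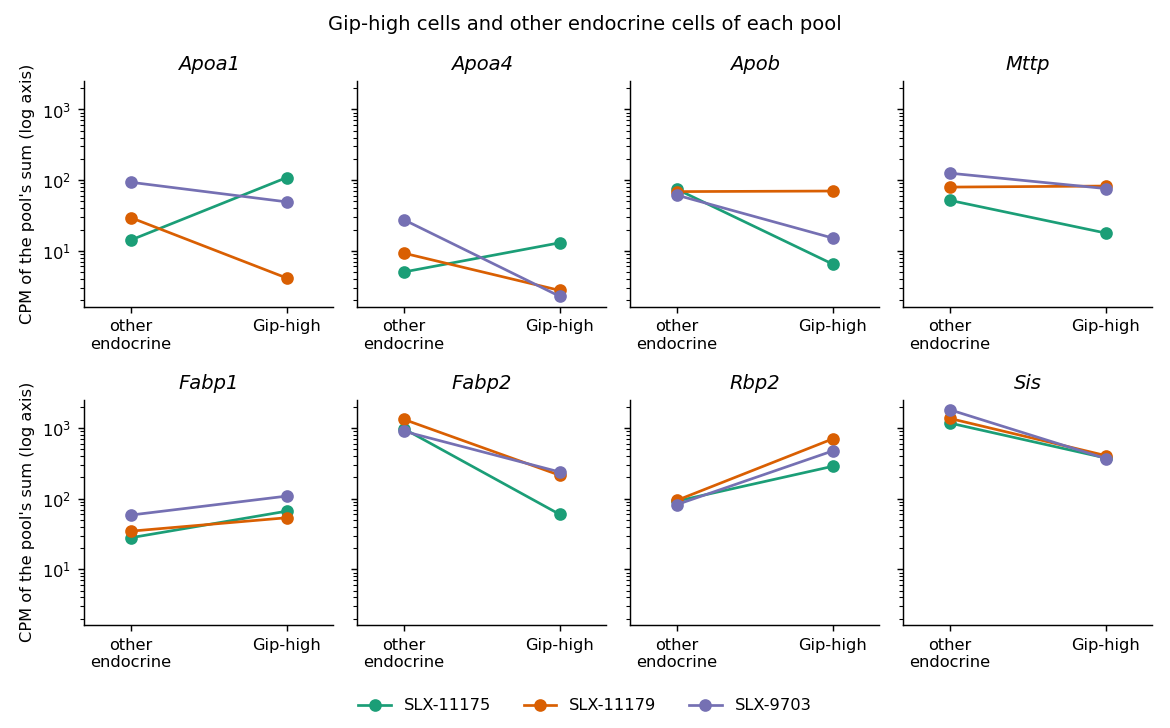
CPM of 8 members (log axis) in the summed reads of Gip-high cells and of the other endocrine cells, with 1 point and line per pool (n = 3). Rbp2 goes up and Fabp2 and Sis go down in each pool, whereas Apoa1 and Apoa4 go up in SLX-11175 and down in the other pools.

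Genes of the same pathways, from lists that hold no member, were read in the same fit. Of 11 tested genes of lipid and sterol uptake, 2 rose in Gip-high cells. The fatty acid binding protein gene Fabp5 was at 588, 1199 and 1409 CPM against 40.5, 15.9 and 34.9 CPM (log2 fold change 5.58, SE 0.52, adjusted p = 3.2e-05), and the lipoprotein receptor gene Scarb1 at 136, 67.4 and 229.62 CPM against 4.59, 7.83 and 5.33 CPM (log2 fold change 4.95, SE 0.62, adjusted p = 0.000403). Of 4 retinoid genes tested, 1 fell: Rdh7, a retinol dehydrogenase gene, had no read in Gip-high cells and stood at 15.9, 25.9 and 58.4 CPM in the others (adjusted p = 0.0129). Rdh7 thus entered the test through the other endocrine cells, and no conclusion is drawn from its call. Of 12 brush border hydrolases, Nt5e, the nucleotidase CD73, fell (4.86, 9.62 and 0.36 CPM against 97.6, 75.4 and 182 CPM, adjusted p = 0.013). Alpl passed as higher (38.9, 0 and 12.6 CPM against 0, 0 and 0.07 CPM, adjusted p = 0.045). It had no read in SLX-11179 and almost none in the other endocrine cells. It thus entered the test through its Gip-high reads, and no conclusion is drawn from its call. None of 17 genes of chylomicron assembly, 10 of brush border structure, 7 transporters and 16 enterocyte transcription factors passed, the most abundant of them being P4hb (log2 fold change -0.30), Lgals4 (-1.51), Slc6a19 (0.91) and Elf3 (0.27). Median log2 fold changes of the lists named here ran from -2.13 (hydrolases) to 0.19 (transcription factors), against -0.27 over all genes tested and -0.66 over the 8 members.

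Next, Pzp-positive endocrine cells (14, 19 and 25 cells) were compared with those under 50 CPM of Pzp (25, 33 and 35 cells). No member passed the test, of 8 tested, against 0.835% of 11023 genes (0.445% higher and 0.39% lower in Pzp-positive cells). At an unadjusted p under 0.05 by edgeR there were 2 members, Apoa1 and Rbp2, and 1042 of the 11023 genes. DESeq2 called 1 member, Rbp2, and 395 genes. Apoa1 was lower in Pzp-positive cells in each pool, at 7.41 against 17.2 CPM, 4.88 against 37.9 CPM and 77.2 against 86.5 CPM. Its log2 fold change was -1.51 (adjusted p = 0.429 by edgeR), and it passed without the filter on low counts. Rbp2 was lower in Pzp-positive cells in 3 of 3 pools, at 37 against 170.3 CPM, 75.2 against 189 CPM and 49.6 against 85.1 CPM, with a log2 fold change of -1.64 (SE 0.30, adjusted p = 0.0576 by edgeR). Without SLX-11179 it passed (-1.65, adjusted p = 0.0202). In that pool cell 75 held 239 of the 582 Rbp2 reads of the Pzp-low sum, and without this cell the sum stood at 118 CPM and the log2 fold change at -1.43 (adjusted p = 0.128). Cell 75 was a Gip-high cell. So was cell 39 of SLX-11175 (202354 CPM of Gip), which had the highest Rbp2 level of the Pzp-low cells of its pool, 604 CPM. The part of Gip-high cells in this difference was not tested. Of the Pzp-positive cells 14 of 58 carried Rbp2 (24.1%), and of the Pzp-low cells 38 of 93 (40.9%). Sis was at 1421 against 949.7 CPM, 1448 against 1230.2 CPM and 2076 against 1448 CPM (log2 fold change 0.19, adjusted p = 0.857), and Fabp2 had a log2 fold change of -0.18 (adjusted p = 0.871). Mttp (-0.97, adjusted p = 0.688), Apob (-0.60, adjusted p = 0.538), Fabp1 (0.44, adjusted p = 0.886) and Apoa4 (0.05, adjusted p = 0.997) did not pass by edgeR either. Sis was carried by all 58 Pzp-positive and by 91 of 93 Pzp-low cells. The goblet genes moved with this contrast, at a median of 8322, 8799.9 and 10080.3 CPM in the Pzp-positive cells against 1021, 1349.7 and 3088 CPM, and the endocrine genes were lower in these cells (10172, 10306 and 16554 CPM against 19769, 20275 and 47337 CPM). Their part in the values of the members was not tested.

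Other brush border genes did differ between these cells. Of 9 hydrolases tested 4 fell and 1 rose in Pzp-positive cells. The peptidase gene Naaladl1 was at 4.94 against 209.6 CPM, 8.36 against 209 CPM and 21.9 against 212 CPM (log2 fold change -4.40, SE 0.41, adjusted p = 0.00315), the meprin gene Mep1a had a log2 fold change of -4.71 (adjusted p = 0.0322), and Nt5e one of 1.94 (adjusted p = 0.037). Mep1a was at 0, 0.7 and 2.81 CPM in the Pzp-positive sums. It entered the test through its Pzp-low reads, and no conclusion is drawn from its call. Of 7 transporters 2 fell, the sodium-glucose transporter gene Slc5a1 (log2 fold change -3.30, adjusted p = 0.00332) and the amino acid transporter gene Slc6a19 (-2.0, adjusted p = 0.0114). Of 5 retinoid genes Rdh7 rose (log2 fold change 3.52, adjusted p = 0.0167). None of 17 genes of chylomicron assembly, 11 of lipid uptake, 10 of brush border structure and 16 transcription factors passed. Median log2 fold changes were -1.57 over the hydrolases and -1.48 over the transporters, against -0.05 over all genes and -0.39 over the members.

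Endocrine cells with at least 10000 CPM of Gcg, the most PPG-like ones, were compared with those under 1000 CPM. These classes and the Pzp classes were cut from the same endocrine cells, which also give the cells that the Gip-high cells were compared with, so that the 3 comparisons share cells and are not independent. No member of 8 tested passed, against 0.507% of 10261 genes (0.175% higher and 0.331% lower in Gcg-high cells). At an unadjusted p under 0.05 by edgeR there were 3 members (Mttp, Rbp2 and Sis) and 795 of the 10261 genes. DESeq2 called 2 members, Mttp and Rbp2, and 257 genes. Mttp was at 69.6 against 29.7 CPM, 121 against 33 CPM and 111 against 61.2 CPM, higher in Gcg-high cells in 3 of 3 pools (log2 fold change 1.45, SE 0.33, adjusted p = 0.174 by edgeR). Rbp2 was at 188 against 71.2 CPM, 216 against 99.0 CPM and 82.1 against 67.8 CPM (log2 fold change 1.06, SE 0.29, adjusted p = 0.302). Cell 75 of SLX-11179 held 239 of the 382 Rbp2 reads of the Gcg-high sum of its pool, and without it this sum was at 89.5 CPM, below the 99.0 CPM of the Gcg-low sum (log2 fold change 0.66, adjusted p = 0.711). Cell 39 of SLX-11175, like cell 75 a Gip-high cell, had the highest Rbp2 level of the Gcg-high cells of its pool (604 CPM). The part of Gip-high cells in the Rbp2 difference was not tested. Sis was at 914 against 1270.47 CPM, 906 against 1383 CPM and 1029 against 1934 CPM, lower in 3 of 3 pools (log2 fold change -0.53, SE 0.19, adjusted p = 0.505). Apoa4 (-1.29, adjusted p = 0.885), Fabp1 (-0.49, adjusted p = 0.923), Apob (0.41, adjusted p = 0.868), Apoa1 (0.34, adjusted p = 0.973) and Fabp2 (-0.30, adjusted p = 0.863) did not pass by edgeR either. With Pzp-positive cells left out, an alternative chosen later, the log2 fold change of Rbp2 was -0.16 and that of Mttp was above 0. No member had an unadjusted p under 0.05 there by edgeR. Over the 13 alternatives the log2 fold change of Mttp ran from 0.62 to 1.74. The goblet genes moved with this contrast, at a median of 706, 853 and 981 CPM in Gcg-high against 8921, 6395 and 8764 CPM in Gcg-low cells, as did the endocrine genes (21917, 18744 and 46938 CPM against 9869, 12194 and 22270 CPM). Their part in the values was not tested.

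Of the pathway lists, 2 of 8 hydrolases rose in Gcg-high cells, Anpep (aminopeptidase N, log2 fold change 2.11, SE 0.25, adjusted p = 0.00839) and Dpp4 (dipeptidyl peptidase 4, which cleaves GLP-1 and GIP, 1.70, SE 0.27, adjusted p = 0.0453). In the same list Nt5e fell (-3.58, SE 0.30, adjusted p = 0.00235), and of 7 transporters Slc5a1 rose (2.74, SE 0.40, adjusted p = 0.0301). Dpp4 stood at 129, 231 and 319 CPM in Gcg-high cells against 31.9, 117 and 95.8 CPM. None of the 17 genes of chylomicron assembly, 11 of lipid uptake, 5 of retinoid handling, 10 of brush border structure and 15 transcription factors passed. Median log2 fold changes were 1.54 over the hydrolases and 0.73 over the transporters, against -0.01 over all genes tested and 0.02 over the 8 members.

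In the comparison of endocrine with Cck-low cells, the same lists held few genes that passed. In endocrine cells, 2 of 6 retinoid genes fell, the homeobox gene Isx (0 against 10.9 CPM, 0.22 against 7.15 CPM and 0.45 against 79.2 CPM, adjusted p = 0.0167) and the retinal dehydrogenase gene Aldh1a1 (adjusted p = 0.0408). Of 11 genes of lipid uptake 1 fell (Dbi, log2 fold change -2.51, adjusted p = 0.0398), as did 1 of 13 hydrolases (Alpl, adjusted p = 0.0442) and 1 of 8 transporters (the anion exchanger gene Slc26a6, log2 fold change -3.94, adjusted p = 0.0228). Alpl was at 0, 0 and 0.07 CPM in the endocrine sums and Aldh1a1 at 0, 0.44 and 8.82 CPM. Isx, Aldh1a1 and Alpl entered the test through their Cck-low reads, and no conclusion is drawn from their calls. None of 17 genes of chylomicron assembly, 10 of brush border structure and 16 transcription factors passed. The median log2 fold change was -0.91 over chylomicron assembly and -1.93 over retinoid genes, against 0.10 over all genes and -1.86 over the 9 members. The enterocyte-list cells were in these sums too.

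Across the endocrine cells of a pool, the members did not form a single group that went up and down together. By the mean over the pools, the highest correlation was that of the neighbouring genes Apoa1 and Apoa4. Their Pearson r of log2(CPM + 1) was 0.09 in SLX-11175 (41 cells), 0.62 in SLX-11179 (53 cells) and 0.74 in SLX-9703 (62 cells). Apoa4 and Fabp1 had an r of 0.45, 0.34 and 0.51, and Fabp2 and Rbp2 one of 0.35, 0.32 and 0.35. Apoa1 and Rbp2 had an r of -0.05, 0.17 and 0.66, highest in the deep pool. Sis, the most widely carried member, had an r with Rbp2 of -0.05, -0.13 and -0.02. These correlations are descriptions across cells that share a pool and differ in depth, and rarer genes are mostly zeros in the shallow pools.

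With other features of the same cells, Sis had an r of 0.46, 0.50 and 0.60 with the goblet genes and of -0.32, -0.26 and -0.42 with Gcg. Rbp2 went the other way, with an r of -0.42, -0.29 and -0.23 with the goblet genes and of -0.35, -0.35 and -0.37 with Pzp. Mttp had an r of 0.30 with the endocrine genes in each pool. The r of Fabp2 with the number of reads was 0.47, 0.38 and 0.18.

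**Figure D5:**
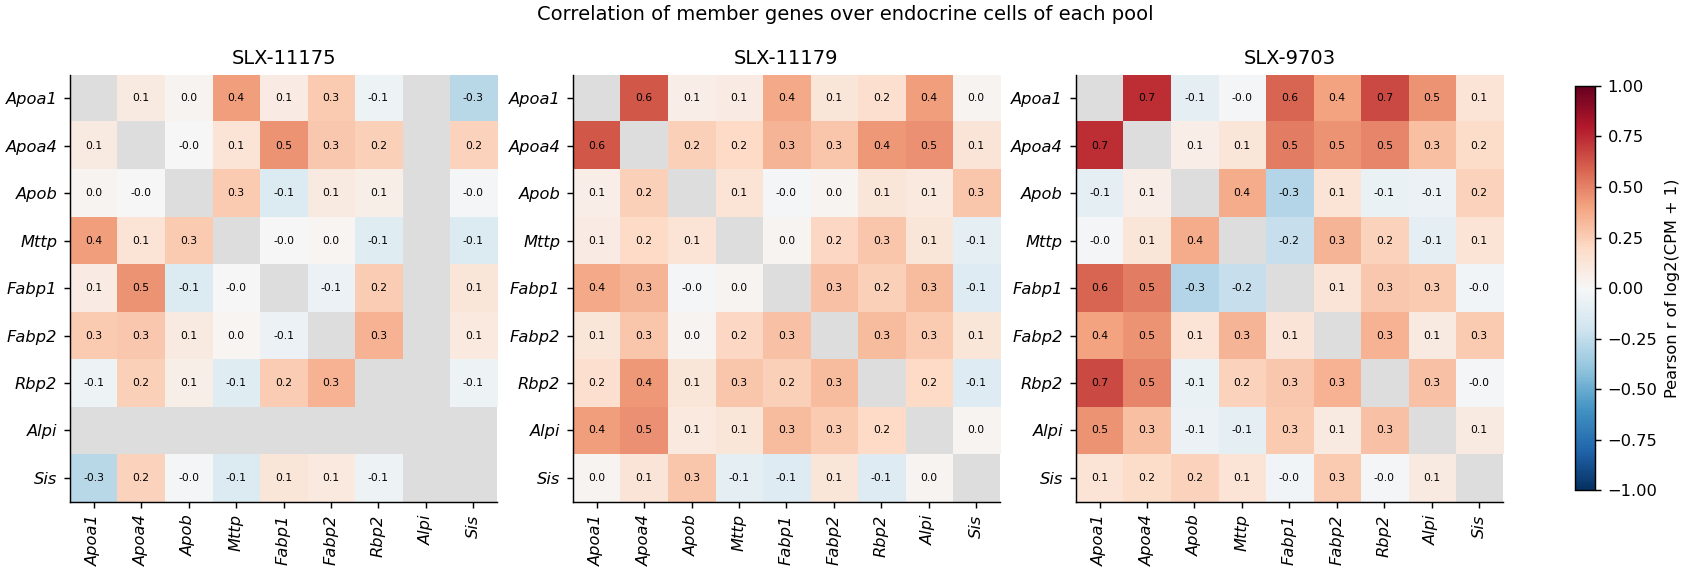
Pearson r of log2(CPM + 1) between member genes over the endocrine cells of each pool (41, 53 and 62 cells), from -1 (blue) to 1 (red), with cells on the diagonal or without a value in grey. Apoa1 and Apoa4 reach 0.62 and 0.74 in SLX-11179 and SLX-9703 but 0.09 in SLX-11175, and Alpi has no value in SLX-11175, where no endocrine cell had a read.

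The genes most like the mean of the 9 members over endocrine cells were sought among 5912 genes with a read in at least 20% of the endocrine cells of every pool. The apolipoprotein gene Apoc2 came first, with a mean r over the pools of 0.506 (0.265, 0.48 and 0.773). Nrp1 (neuropilin 1) followed with 0.372 and the apolipoprotein gene Apoc3 with 0.351. The other 7 of the first 10 were Chga (chromogranin A, 0.326), Ctnnal1 (0.321), Fabp5 (0.321), Smim24 (0.320), Chgb (chromogranin B, 0.315), Naaladl1 (0.302) and Pmm2 (0.295). The list thus held 2 more apolipoprotein genes and both chromogranin genes, granule proteins of endocrine cells.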

How the data were processed

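Single cells of 3 pools were sequenced by Smart-seq2. By the submitters' processing notes, reads were aligned with GSNAP to mm10 and counted per gene with HTSeq (0.5.3p3). The authors deposited raw counts (reads of a cell on a gene, not normalized) for 46078 mouse genes and 92 spike-ins. Lines that name no gene (77.6% of counts) stayed out, 4 columns of no listed sample were not read, and 45143 identifiers matched a GENCODE M21 symbol. No doublet caller was run, since cells were sorted singly into wells, and doublets of the sort stay in the counts.

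Counts of a pool's cells of a class were summed (3 cells or more) and tested with edgeR 4.0.16 in R 4.3.3 (TMM, filterByExpr, quasi-likelihood test, pool as block, Benjamini-Hochberg adjustment over all genes tested, threshold 0.05). The pool is a block because its classes share an animal. Per-cell values used Python 3.11.15 with numpy 2.4.6, pandas 2.3.3 and scipy 1.17.1, and correlations a pseudocount of 1 CPM. Alternatives were DESeq2 1.42.0, limma 3.58.1 on the log2 of mean CPM, other filters, depths and class limits, and each pool left out. The test was tried on simulated counts: of genes changed 16-fold it recovered 30.3% (endocrine against Cck-low), 97.9% (Pzp), 95.7% (Gcg) and 30.5% (Gip), of those changed 4-fold 0%, 19.8%, 19.1% and 1%.

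Named are the members tested in each comparison, from each pathway list at most 4 genes (the 2 with the largest rise and the 2 with the largest fall among those that passed, otherwise the 2 of highest level), and the 10 genes most correlated with the members. The members, lists and class limits were chosen with earlier results of these data known. A gene of the enterocyte list is not reported here and was left out of its sums. Cells 85, 83, 63, 75, 39, 8, 96 and those with 6 or more members were singled out after their values were seen.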

Additional observations from a re-analysis of the deposited data

Results flagged for a closer look

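In 4 contrasts of members with at least 3 reads in each sum, the deep pool went one way and both shallow pools the other, and these differences between pools were not tested. Members whose shallow pools differed in sign from each other are not listed. In endocrine over Cck-low cells, the log2 ratio of the CPM of Apob was -0.73 in SLX-9703 against 3.54 in SLX-11175 and 0.61 in SLX-11179, and that of Fabp2 was -1.63 against 0.56 and 1.46. The deep Cck-low sum holds cell 63, an enterocyte-list cell with 90.4% of its Fabp2 reads. In Gcg-high over Gcg-low endocrine cells, the log2 ratio of Apob was -0.23 in SLX-9703 against 1.08 and 0.08, and that of Fabp1 was 0.26 against -2.65 and -0.05 in the same order of pools.

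By Dixon's criterion, under which chance marks about 1 group in 20, single cells stood apart from the others of their class for some members. The members were read in the same cells, so these tests are not independent and their number is not set against chance. Among the 8 Cck-low cells of SLX-9703, cell 63 had 293.73 CPM of Apoa4 (the next cell 9.56), 4456.61 CPM of Mttp (next 13.09) and 718.49 CPM of Alpi (next 2.14). Among the 6 Gip-high cells of SLX-11179, cell 27 had 18.09 CPM of Apoa4 where the other cells had 0, which passes by construction, and cell 14 had 0.0 CPM of Rbp2, where the next lowest had 258.21. Cell 14 was a shallow cell, with 20617 reads on genes.

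Cells with Cck between 1000 and 10000 CPM entered the comparison of Gip-high cells where Gip was high and, in the refit with Cck limits of 5000 and 500 CPM, the endocrine class where Cck was at least 5000 CPM. Of them, 2 were enterocyte-list cells of SLX-9703. Cell 8 had 64467.06 CPM of Fabp2, 25828.36 CPM of Rbp2 and 13830.97 CPM of Fabp1, with 8623.93 CPM of Cck and reads of 13 of the 13 enterocyte markers. Cell 96 had 8799.0 CPM of Fabp2 and 8192.0 CPM of Fabp1 beside 66014.14 CPM of Gcg and 9564.77 CPM of Cck, with 17.46% mitochondrial reads.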

How the results depend on the processing

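Of 455 refits of a member in a comparison, 384 kept its direction and its side of the threshold, 26 lost a call, 18 gained one and 27 changed sign, and the causes were not tested unless given here. Genes called ran from 0 to 327 when a pool was left out of the endocrine comparison (members 0 to 4), from 26 to 145 for Pzp (members 0 to 1), from 8 to 83 for Gcg (members 0) and from 21 to 191 for Gip (members 0 to 3). The lowest counts came without SLX-11175 (endocrine, Gcg) and without SLX-9703 (Pzp, Gcg, Gip), and the highest without SLX-9703 (endocrine) and without SLX-11179 (the others). DESeq2 called 1091 genes and 6 members in the endocrine comparison (183 genes and 3 members by edgeR), 395 and 1 for Pzp (92 and 0), 257 and 2 for Gcg (52 and 0), and 394 genes for Gip (122). Without a filter on low counts 991 genes and 5 members, 374 and 2, 206 and 1, and 263 genes passed in the same order. With limma on mean CPM, where each cell weighs the same, 94 genes and 1 member, 0 genes (1241 at an unadjusted p under 0.05), 3 genes, and for Gip 0 members passed. Of the genes called in the endocrine comparison 21.9% were higher with edgeR, 46.5% with DESeq2, 38.2% without the filter, 38.9% without the block and 75.5% with limma; for Gip 49.2% with edgeR, 35.7% without the filter and 18.6% with limma. Under limma the median log2 fold change of all genes was 0.61, 0.18, -0.16 and -0.79 in the 4 comparisons, against 0.10, -0.05, -0.01 and -0.27 with edgeR.

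Without the pool as a block, which pairs the classes of an animal, 1 member (Fabp1) passed in the endocrine comparison, 34 genes for Gcg and 78 genes and 1 member (Rbp2) for Gip, where Fabp2 had an adjusted p of 0.0804. Apoa4 (Pzp, -0.02) and Apoa1 (Gcg, -0.35) changed sign there.

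In the endocrine comparison, 72 genes and 0 members passed with a mitochondrial limit of 10%, 115 genes with Cck limits of 5000 and 500 CPM, 26 genes and 1 member without leukocyte-list cells, 25 and 1 without plasma or leukocyte-list cells, and 87 and 0 without enterocyte-list cells. For Pzp 57 genes passed among cells under 1000 CPM of Gcg. For Gcg 33 passed with at least 50000 reads, 22 with limits of 5000 and 500 CPM, 11 among cells under 50 CPM of Pzp, and 32 without cell 75 of SLX-11179. For Gip 80 genes and 1 member passed with at least 750000 reads in the deep pool, and 62 and 1 for Gip-high cells under 1000 CPM of Cck (2 pools, since the third had fewer than 3 such cells). The refits without plasma or enterocyte-list cells, those within low Gcg, low Pzp or low Cck a Gip limit of 100000 CPM and the refits without cell 75 were chosen after the data had been seen. Members carried per cell were 3.26 in endocrine and 2.19 in Cck-low cells, and 3.96 and 2.73 when 1 thinned read sufficed.

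In the endocrine comparison, Fabp2 turned to 0.05 with limma, Mttp to 2.01 and Fabp2 to 1.88 at the 10% limit, and Apob to -0.35 and -0.39 without the leukocyte and without the plasma or leukocyte-list cells. Without enterocyte-list cells Mttp turned to 1.85 and Fabp2 to 0.72. Leaving out pools moved Apob between -0.48 and 0.76. For Pzp, Apoa4 turned to -0.00032 without the filter and ran from -1.40 to 1.56, and Fabp1 from -0.25 to 0.89, when a pool was left out. Among cells under 1000 CPM of Gcg, Apoa4 was -0.44 and Sis -0.14. For Gcg, Apoa1 turned to -0.12 with at least 50000 reads and, with cells under 50 CPM of Pzp, to -0.63, Fabp1 to 1.87 and Rbp2 to -0.16. Without a pool Apoa1 ran from -0.69 to 1.29 and Fabp1 from -1.11 to 0.32. For Gip, Apoa1 turned to -0.52 with limma and -0.02 with 750000 reads, Mttp to 0.11 with 50000 reads and Apoa4 to 0.35 for Gip-high cells under 1000 CPM of Cck. Without a pool Apoa1 ran from -1.35 to 1.45 and Apoa4 from -2.52 to 0.29. None of these values of a changed sign passed the test. At 20000 reads a single read is worth 50 CPM, and the part of depth in the values of the rare members was not tested.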

Other observations

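Genes listed for the position of an enterocyte on the villus were read in the same comparisons. Among the genes of the villus tip, Nt5e rose in Pzp-positive cells (log2 fold change 1.94, adjusted p = 0.037 by edgeR), the only call among 4 genes tested, and fell in Gcg-high (-3.58, adjusted p = 0.00235) and Gip-high cells (-5.10, adjusted p = 0.013). These 3 comparisons share cells. Of 6 genes of the villus bottom, the antimicrobial gene Reg3g fell in endocrine against Cck-low cells (1.54 against 13.8 CPM in SLX-11175, 5.26 against 163 CPM in SLX-11179 and 15.5 against 758 CPM in SLX-9703, log2 fold change -5.48, adjusted p = 0.0041). Reg3g is also 1 of the 13 markers that define the enterocyte-list cells of these Cck-low sums. Lypd8, whose protein keeps bacteria off the epithelium, fell in Gip-high cells (61.6, 9.62 and 77.8 CPM against 369.99, 557 and 769 CPM, log2 fold change -3.27, adjusted p = 0.00934). None of the 6 passed between Pzp or Gcg classes.

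The 30 cells with Cck between the limits carried Sis in 21 (70%), Fabp2 in 18 (60%), Rbp2 in 13 (43.3%) and Alpi in 2 (6.67%), at a median depth of 441774 reads.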
